A study of Pinus pinaster with 4 samples.

Results

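The genes described here are 3 contigs of the maritime pine (Pinus pinaster) transcriptome, named after enzymes at successive stages of the flavonoid pathway. The contigs are chalcone synthase (CHS, sp_v3.0_unigene30752), dihydroflavonol-4-reductase (DFR, sp_v3.0_unigene93947) and anthocyanidin reductase (ANR, sp_v3.0_unigene28159). They are 3 of the 17571 rows of the deposited RNA-Seq table. They were chosen by their measured values, since the study named them among genes that differed between the provenances Leiria and Tamrabta, partly on arrays that included the sequenced plants. Their difference between the provenances is therefore a description. Calls by tests over all genes are listed for scale and support nothing about it.

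Needles were sequenced from 4 plants, with 1 library for each plant. The Leiria plants were numbered 6 and 7 (L6 and L7) and the Tamrabta plants 3 and 6 (T3 and T6), and values of a provenance stand in this order of its plants. GEO labels L6 and T3 as replicate 1 and L7 and T6 as replicate 2. Leiria is a coastal provenance from Portugal and Tamrabta one from the Atlas mountains of Morocco. All 4 plants were rooted cuttings, planted at 17 months of age in 2-l pots in 1 greenhouse in northern Spain. They were irrigated with fertiliser, had all branches pruned, and gave adult needles. Their age at sampling is not stated in the sources used here. The cuttings belonged to a clonal collection. Whether plants of the same provenance were of 1 clone is not stated in the sources used here. With 2 plants for each provenance, any SD is the spread between these plants only. The standard errors of the limma fit also draw on a prior variance from all genes, so they are not that spread alone.

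Flavonoids are made from phenylpropanoid precursors. Chalcone synthase joins coumaroyl-CoA with malonyl-CoA and so opens the pathway. Dihydroflavonol-4-reductase reduces dihydroflavonols to leucoanthocyanidins, on the branch that leads to anthocyanins and tannins. Anthocyanidin reductase turns anthocyanidins into flavan-3-ols such as epicatechin, the units of proanthocyanidins, which are the condensed tannins that conifers store in needles and bark. In pines chalcone synthase belongs to a family that also holds stilbene synthase, an enzyme of closely similar sequence.

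Levels are library-scaled counts (CPM, each count divided by the scaled total of its library) as the authors scaled them with edgeR. Whole counts recovered from these values totalled 40019608 to 58835449 in a library, and 3 counts correspond to 0.0513 to 0.0825 CPM, far below any value of the 3 enzymes. The intervals printed with levels are exact 95% Poisson intervals of those counts and cover counting error only. Use of strand and the treatment of pairs fitting several contigs are not stated in the sources used here, and similar contigs could share counts. Contig lengths were not used here, so levels are not compared between the enzymes.

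Of 11 photosynthesis genes taken as markers of needle tissue, 4 had a row. These were a psbY precursor of photosystem II, an oxygen-evolving enhancer protein 2, Lhca4 of the light-harvesting complex, and a photosystem I subunit V. All 4 were detected in every library. Their summed level was 6821 and 5099.6 CPM in Leiria, against 3912 and 3003 CPM in Tamrabta, and each of the 4 was higher in both Leiria plants than in both Tamrabta plants, as were 25.1% of all rows. The markers were named from the array results of the study, which included the sequenced plants and were sorted by p. Their direction is therefore no independent evidence. The part of the marker difference in the results on the enzymes was not tested. In needles taken whole, fewer cells that express a gene and less RNA of it in each cell cannot be told apart.

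All 3 enzymes had lower levels in both Leiria plants than in both Tamrabta plants. The ratio of the Tamrabta to the Leiria mean was 5.19 for chalcone synthase, 3.52 for dihydroflavonol-4-reductase and 5.36 for anthocyanidin reductase. The plants of 1 provenance differed beyond counting error in each enzyme, except T3 and T6 in chalcone synthase.

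Chalcone synthase had 25.5 CPM (interval 23.9 to 27.2) and 14.0 CPM (13.0 to 15.0) in the Leiria plants L6 and L7, against 101 CPM (97.8 to 103) and 104 CPM (101 to 107) in the Tamrabta plants T3 and T6. The Tamrabta plants stood close together, the Leiria plants stood apart, and the provenances did not overlap. The mean level was 19.7 ± 8.16 CPM in Leiria and 102 ± 2.56 CPM in Tamrabta (SD, n = 2 each). Every pairing of a Tamrabta with a Leiria plant gave a fold between 3.94 and 7.46. The logFC, which is the Leiria minus the Tamrabta mean of log2(CPM + 0.5), was -2.41 with a standard error of 0.32 in the limma fit over all genes. It was number 96 from the lowest of the 17571 rows.

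Dihydroflavonol-4-reductase had 4.01 CPM (3.39 to 4.72) and 3.04 CPM (2.61 to 3.52) in the Leiria plants L6 and L7, against 15.5 CPM (14.4 to 16.6) and 9.34 CPM (8.47 to 10.3) in the Tamrabta plants T3 and T6. Here T3 held the highest level, and the lowest Tamrabta plant was 2.33 times the highest Leiria plant. The mean level was 3.53 ± 0.686 CPM in Leiria and 12.4 ± 4.37 CPM in Tamrabta (SD, n = 2 each). The logFC was -1.65 with a standard error of 0.32, number 286 from the lowest.

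Anthocyanidin reductase had 2.72 CPM (2.21 to 3.31) and 5.15 CPM (4.58 to 5.76) in the Leiria plants L6 and L7, against 13.5 CPM (12.5 to 14.5) and 28.7 CPM (27.1 to 30.3) in the Tamrabta plants T3 and T6. L6 was the lowest of the 4 plants and T6 the highest. The lowest Tamrabta plant was 2.62 times the highest Leiria plant, and the widest pairing of plants gave a fold of 10.5. The mean level was 3.93 ± 1.71 CPM in Leiria and 21.1 ± 10.7 CPM in Tamrabta (SD, n = 2 each). The logFC was -2.24 with a standard error of 0.48, number 126 from the lowest.

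**Figure D1:**
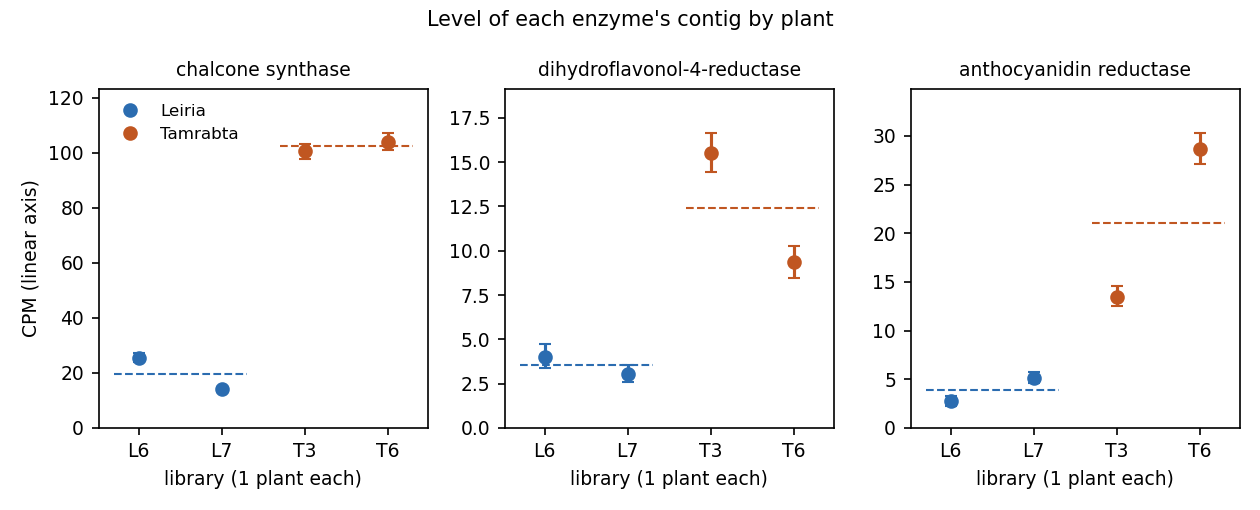
Level in CPM (linear axis from 0, a scale of its own in each panel) of chalcone synthase, dihydroflavonol-4-reductase and anthocyanidin reductase in the Leiria plants L6 and L7 and the Tamrabta plants T3 and T6. Points are libraries, bars the exact 95% Poisson interval of the counts, and dashed lines the mean of a provenance: Tamrabta lies above Leiria in each panel, with T3 and T6 close together only for chalcone synthase (101 and 104 CPM).

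How often other genes met the same criteria is given for scale, and nothing is read from it, because the enzymes were selected on this contrast. Both Tamrabta plants stood above both Leiria plants for 3 of 3 enzymes and for 23.9% of all rows. In limma, with thresholds of 0.05 on the adjusted p and of 1 on the absolute logFC, 0 of 3 enzymes were called, and 0.0455% of all rows were called lower in Leiria. An unadjusted limma p under 0.05 with a negative logFC was found for 3 of 3 enzymes and 5.59% of all rows. On recovered counts, the exact test of edgeR called 3 of 3 enzymes, against 2.49% of all rows called lower in Leiria, and DESeq2 also called 3, against 2.60% of all rows. The quasi-likelihood test of edgeR called 0, against 0.00569%.

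Plants of the same origin also differed. The tests of the study weigh the difference between provenances against such spread, so it is not independent of the choice of the genes. In Leiria, chalcone synthase was 1.83 times higher in L6 than in L7 (exact 95% binomial interval 1.66 to 2.01), and anthocyanidin reductase was 1.89 times higher in L7 than in L6 (1.502 to 2.40). The first and the last enzyme thus differed in opposite directions between the same plants, each beyond counting error. Of the 11218 genes with a mean CPM of at least 5, 93.8% differed less between L6 and L7 than chalcone synthase did, and 93.2% differed less than anthocyanidin reductase did. Dihydroflavonol-4-reductase differed 1.32 times, with L6 the higher (1.05 to 1.65), more than 74.8% of these genes. The median gene differed by 0.18 on the log2 scale. The minimum of 5 was a mean over all libraries. Dihydroflavonol-4-reductase and anthocyanidin reductase met it through Tamrabta, with Leiria means of 3.53 and 3.93 CPM. The genes compared were not matched for level.

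In Tamrabta, chalcone synthase was 1.04 times higher in T6 than in T3 (0.996 to 1.08), a difference not detectable beyond counting error at this depth, and only 9.74% of the genes differed less. Dihydroflavonol-4-reductase was 1.66 times higher in T3 than in T6 (1.47 to 1.88), and anthocyanidin reductase was 2.13 times higher in T6 than in T3 (1.94 to 2.34). These differences exceeded those of 82.5% and 91.2% of the genes, whose median was 0.30 on the log2 scale. The reductases of the middle and the end of the pathway thus also differed in opposite directions between T3 and T6.

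The ratio of the counts of 2 enzymes within a library does not depend on how libraries are scaled. As contig lengths were not used here, only its change between plants is read. The intervals are exact 95% binomial intervals of the counts.

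Dihydroflavonol-4-reductase per chalcone synthase was 0.157 (0.131 to 0.188) and 0.218 (0.184 to 0.257) in Leiria, against 0.154 (0.143 to 0.166) and 0.0896 (0.0809 to 0.0991) in Tamrabta. The plants of Leiria were the higher, but L6 and T3 had overlapping intervals. The ratio of the geometric means was 1.57, beside 1.38 between the Leiria plants and 1.72 between the Tamrabta plants, so the difference between provenances was no larger than that between T3 and T6.

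Anthocyanidin reductase per chalcone synthase was 0.107 and 0.368 in Leiria, against 0.134 and 0.275 in Tamrabta. The provenances overlapped, and their geometric means differed 1.03 times, whereas the Leiria plants differed 3.45 times and the Tamrabta plants 2.05 times. Anthocyanidin reductase per dihydroflavonol-4-reductase was 0.678 (0.520 to 0.881) and 1.69 (1.40 to 2.05) in Leiria, against 0.870 (0.784 to 0.965) and 3.07 (2.75 to 3.44) in Tamrabta. This ratio differed 2.49 times between the Leiria plants and 3.53 times between the Tamrabta plants, against 1.53 times between the provenances. L7 and T6 thus had more counts of the last enzyme for each count of the earlier ones than L6 and T3 did. These pairs also share a replicate number, 2 for L7 and T6 and 1 for L6 and T3, and plant and replicate number cannot be told apart.

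**Figure D2:**
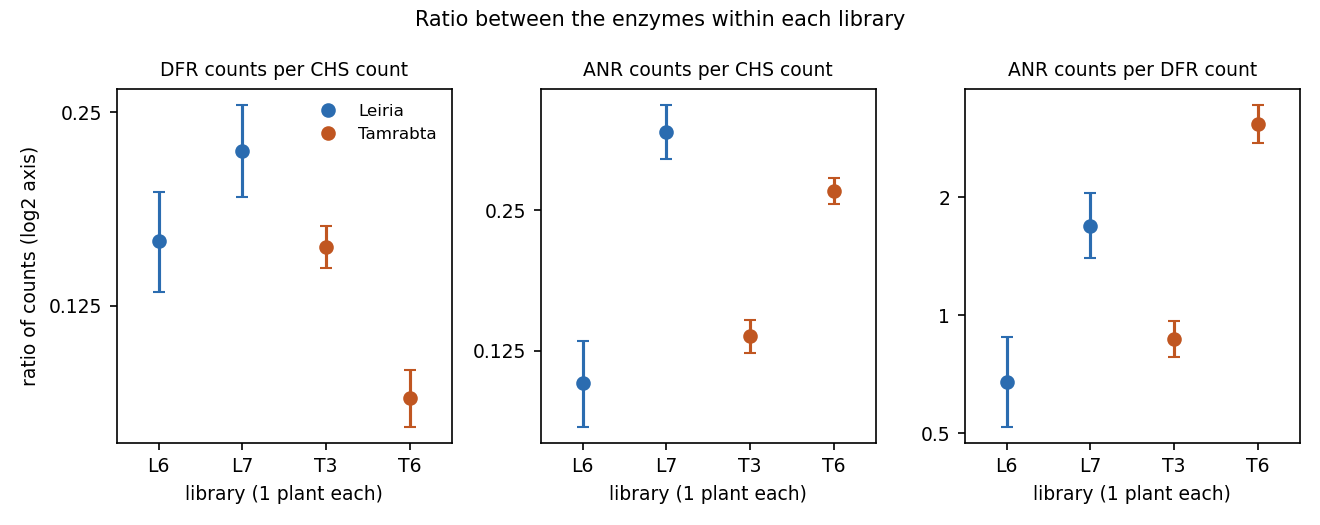
Ratio of counts between the enzymes (log2 axis, a scale of its own in each panel) in the Leiria plants L6 and L7 and the Tamrabta plants T3 and T6, with exact 95% binomial intervals as bars. Both ratios with anthocyanidin reductase on top are higher in L7 and T6 than in L6 and T3, so the provenances overlap, while dihydroflavonol-4-reductase per chalcone synthase is highest in L7 (0.218) and lowest in T6 (0.0896).

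Seen as a whole, the summed level of the 3 contigs was 32.2 and 22.2 CPM in Leiria, against 129.5 and 142 CPM in Tamrabta. Chalcone synthase made up 79.1% and 63.0% of their counts in Leiria, against 77.6% and 73.3% in Tamrabta. The share of anthocyanidin reductase was 8.44% and 23.2% in Leiria, against 10.4% and 20.2% in Tamrabta. The share of dihydroflavonol-4-reductase was 12.4% and 13.7% in Leiria, against 11.98% and 6.57% in Tamrabta. A longer contig collects more counts, so these shares are not shares of transcripts.

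The names of the contigs rest on sequence matches made by the authors. The anthocyanidin reductase contig was described by its match to the Ginkgo biloba enzyme, but the Arabidopsis gene listed for it, AT5G42800, is the dihydroflavonol-4-reductase gene of that species. Both reductases belong to the same family of enzymes. Where the anthocyanidin reductase contig is read here as the last enzyme, that place in the pathway rests on the Ginkgo description. The dihydroflavonol-4-reductase contig was matched to the enzyme of the China aster (Callistephus chinensis), and the name of the chalcone synthase contig comes from the text of the study.

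The patterns of the 3 enzymes over the 4 libraries were compared with those of all genes with a mean CPM of at least 5, by the Euclidean distance of log2(CPM + 0.5) values centred on the mean of each gene. From chalcone synthase, dihydroflavonol-4-reductase was number 42 of 11217 genes in nearness and anthocyanidin reductase number 130. From dihydroflavonol-4-reductase, chalcone synthase was number 176 and anthocyanidin reductase number 2796, so 24.9% of the genes lay as near or nearer. From anthocyanidin reductase, chalcone synthase was number 224 and dihydroflavonol-4-reductase number 381. None of the 3 enzymes was among the 3 nearest genes of another. The distance contains the difference between the provenances on which the enzymes were chosen, so their nearness to each other is in part built in by that choice.

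The gene nearest to chalcone synthase was sp_v3.0_unigene139733 (distance 0.10), which carries no name here. It had 5.33 and 2.85 CPM in Leiria, against 20.9 and 22.1 CPM in Tamrabta. Its counts per chalcone synthase count were 0.209 and 0.204 in Leiria, against 0.208 and 0.213 in Tamrabta, with overlapping 95% intervals. Then followed sp_v3.0_unigene32843, a glutathione-S-transferase (0.34), and the unnamed sp_v3.0_unigene143836 (0.34).

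The gene nearest to dihydroflavonol-4-reductase was the unnamed sp_v3.0_unigene16578 (distance 0.047). It had 2.75 and 2.03 CPM in Leiria, against 10.6 and 6.403 CPM in Tamrabta. Its counts per dihydroflavonol-4-reductase count were 0.685 and 0.669 in Leiria, against 0.681 and 0.686 in Tamrabta, again with overlapping intervals. Each was chosen as the nearest of 11217 genes over the same libraries. Its steady ratios are in part built in by that choice and are given as a description. The next genes were sp_v3.0_unigene632 (0.24) and sp_v3.0_unigene8965 (0.32).

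For anthocyanidin reductase the nearest gene was the unnamed sp_v3.0_unigene11341 (distance 0.17). Its counts per anthocyanidin reductase count were 0.303 (0.194 to 0.460) and 0.326 (0.257 to 0.410) in Leiria, against 0.402 (0.348 to 0.464) and 0.443 (0.4004 to 0.489) in Tamrabta. The next genes were sp_v3.0_unigene11611 (0.25) and sp_v3.0_unigene95957 (0.30). Whether any of these contigs shares sequence with the enzyme it follows was not tested.

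**Figure D3:**
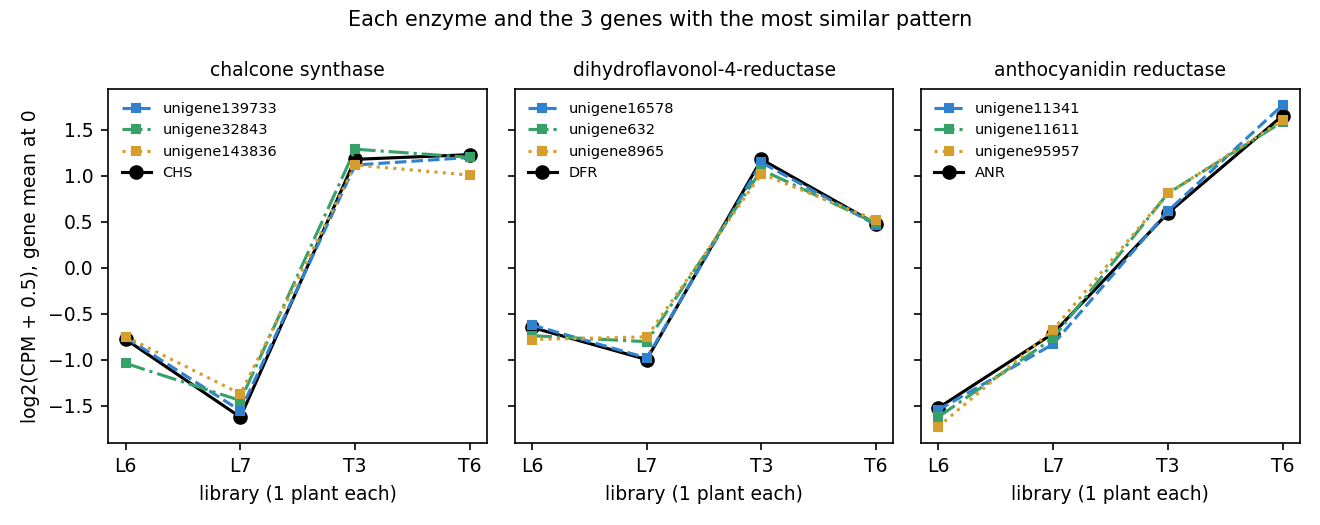
Centred log2(CPM + 0.5) of each enzyme (black) and of the 3 genes with the most similar pattern, by library, with the Leiria plants L6 and L7 left of the Tamrabta plants T3 and T6 (vertical axis in log2 units around the mean of the gene; lines join libraries only to guide the eye). The nearest genes follow chalcone synthase and dihydroflavonol-4-reductase at distances of 0.10 and 0.047, and only the anthocyanidin reductase panel shows L7 above L6 with T6 above T3.

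Of 51 further contigs listed for steps before, beside and after the 3 enzymes, 21 had a row. The list was drawn from the array results of the study, which included the same plants and were sorted by p. It was therefore preselected for a difference, and its counts are no independent evidence of a direction. The distance between patterns contains that difference, so the nearness of a listed gene to an enzyme can be in part built in. Of the 21 genes, 17 had a negative and 4 a positive logFC, with a median of -0.99, beside 0.011 for all rows. Both Tamrabta plants stood above both Leiria plants for 14 genes, beside 23.9% of all rows. Both Leiria plants stood above both Tamrabta plants for 4, beside 25.1% of all rows. In limma 0 of 21 genes passed, beside 27 of the 17571 rows, and 13 had an unadjusted p under 0.05, as did 14.7% of all rows. The exact test of edgeR called 8 lower and 1 higher in Leiria, against 2.49% and 3.51% of all rows.

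In the shikimate pathway, which supplies phenylalanine for all phenylpropanoids, both genes had a negative logFC and neither passed a test. The larger was that of a shikimate kinase, sp_v3.0_unigene8994, at -0.99, with 150 and 136 CPM in Leiria, against 204 and 396 CPM in Tamrabta.

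Among 7 further contigs named after flavonoid enzymes, 1 had a row, a protein with a chalcone domain (sp_v3.0_unigene28293). It had 5.06 and 4.99 CPM in Leiria, against 3.51 and 3.27 CPM in Tamrabta, a logFC of 0.51 with a standard error of 0.19. Its sign is opposite to that of the 3 enzymes, and it passed neither limma nor the exact test. The other 6, named as chalcone synthases, an anthocyanidin synthase, a leucoanthocyanidin reductase and another anthocyanidin reductase, were not analysed here.

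The 5 genes of lignin and lignan synthesis, which draws on the same precursors as chalcone synthase, had logFC values of both signs. A putative cinnamoyl-CoA reductase, an enzyme type of the lignin branch (sp_v3.0_unigene23552), had 47.9 and 30.9 CPM in Leiria, against 258 and 196 CPM in Tamrabta, with a logFC of -2.53. It was the fifth nearest gene to chalcone synthase and was lower in Leiria by the exact test. By contrast, a phenylcoumaran benzylic ether reductase (sp_v3.0_unigene16601), an enzyme type of lignan metabolism, had 29.0 and 15.3 CPM in Leiria, against 2.22 and 1.69 CPM in Tamrabta. Its logFC of 3.15 was the highest of the list, and it was the 1 gene higher in Leiria by the exact test. In nearness to chalcone synthase it was number 11111 of 11217 genes.

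A homologue of that enzyme, sp_v3.0_unigene28358, had 21.6 and 3.20 CPM in Leiria, against 44.8 and 41.3 CPM in Tamrabta. The logFC was -2.27 (standard error 0.89) and passed no test, the Leiria plants standing far apart. An O-methyltransferase (sp_v3.0_unigene11023) had 11.7 and 14.8 CPM in Leiria, against 7.39 and 6.71 CPM in Tamrabta, with a logFC of 0.86. A hydroxycinnamoyl/benzoyltransferase (sp_v3.0_unigene20456) had 38.9 and 66.2 CPM in Leiria, against 69.7 and 64.8 CPM in Tamrabta, so the provenances overlapped.

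Of 6 regulators listed, 2 had a row. One matched HY5 of Arabidopsis (sp_v3.0_unigene6865), a bZIP factor that in Arabidopsis promotes light responses and activates chalcone synthase. It had 36.7 and 39.5 CPM in Leiria, against 94.2 and 89.6 CPM in Tamrabta. Its plants lay close within each provenance, its logFC was -1.26 with a standard error of 0.15, and it was lower in Leiria by the exact test but not by limma (adjusted p = 0.094). By pattern it was number 46 from dihydroflavonol-4-reductase, number 115 from chalcone synthase and number 216 from anthocyanidin reductase.

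The other regulator, an R2R3-Myb5 fragment (sp_v3.0_unigene210278), was matched to AT4G38620, which is MYB4, a repressor of phenylpropanoid genes in Arabidopsis. It had 31.3 and 38.1 CPM in Leiria, against 20.9 and 30.7 CPM in Tamrabta. The logFC was 0.44 with a standard error of 0.25 and passed no test, and L6 and T6 were nearly level. In nearness this fragment was number 9546 from dihydroflavonol-4-reductase, number 9354 from chalcone synthase and number 8001 from anthocyanidin reductase.

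UDP-glycosyltransferases attach sugars to flavonoids and many other small molecules. All 4 with a row had higher levels in both Tamrabta plants, as did 23.9% of all rows, with a logFC from -2.68 to -0.87. The exact test called 2 of them lower in Leiria, against 2.49% of all rows. The largest was that of sp_v3.0_unigene7174, which had 6.29 and 8.31 CPM in Leiria, against 31.6 and 76.4 CPM in Tamrabta. It had the same order of plants as anthocyanidin reductase and was number 18 from it in nearness.

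Glutathione transferases act in detoxification, and some carry flavonoids towards the vacuole in other plants. The 4 with a row had a logFC from -3.01 to -0.07, and 2 were lower in Leiria by the exact test, beside 2.49% of all rows. The lowest logFC belonged to a tau class member, sp_v3.0_unigene1599, which had 21.5 and 39.4 CPM in Leiria, against 181 and 315 CPM in Tamrabta. The other was sp_v3.0_unigene32843, the second nearest gene to chalcone synthase, with 42.0 and 31.6 CPM in Leiria, against 213 and 200.2 CPM in Tamrabta.

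The 3 transporters were of the MATE family, whose members include vacuolar carriers of flavonoids in other plants. Their logFC lay between -1.48 and -0.45, and 2 were lower in Leiria by that test, again beside 2.49% of all rows. The largest difference was that of sp_v3.0_unigene18734, with 171 and 165 CPM in Leiria, against 433 and 509.8 CPM in Tamrabta. The 3 enzymes lay within the range of the listed genes, from -3.01 to 3.15, but that list was preselected for a difference. Over all rows, chalcone synthase, dihydroflavonol-4-reductase and anthocyanidin reductase were numbers 96, 286 and 126 from the lowest logFC.

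**Figure D4:**
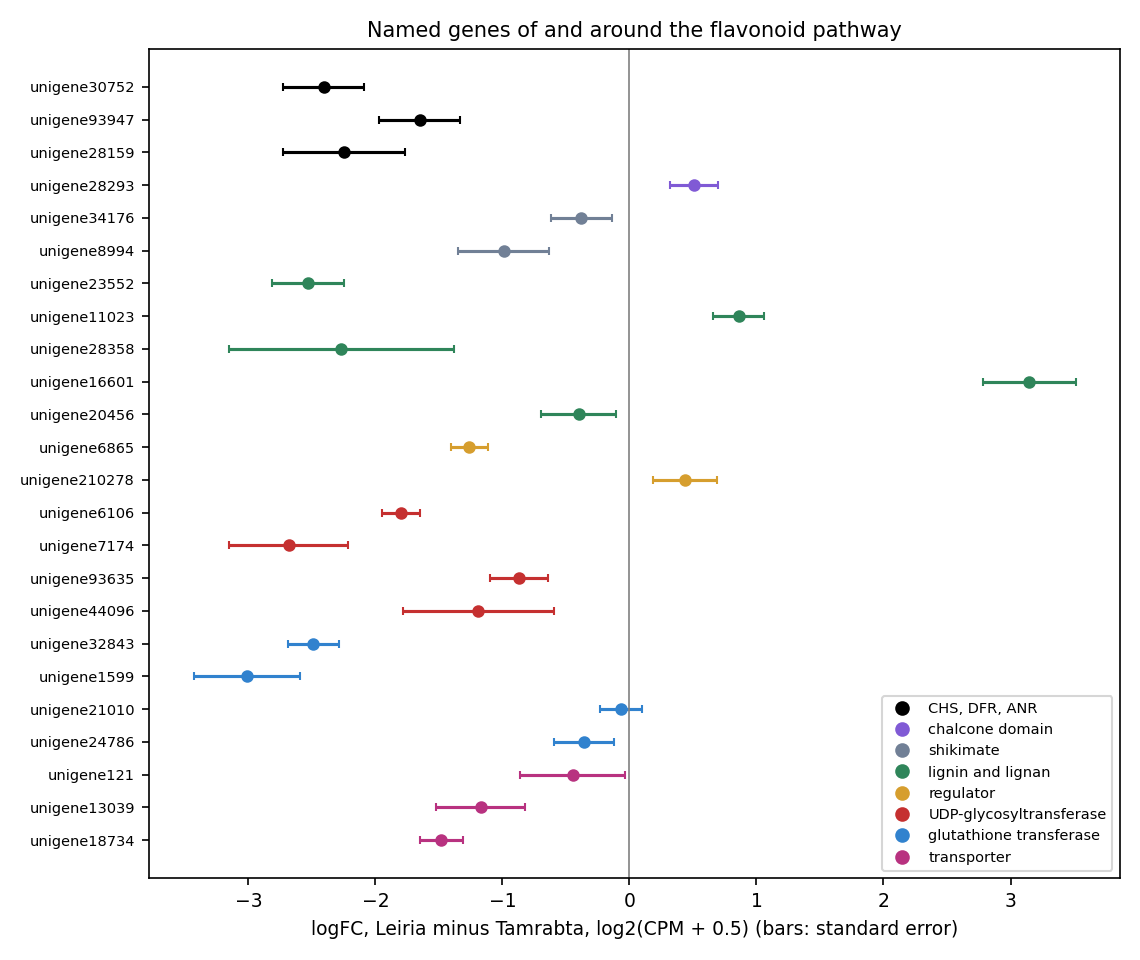
logFC (Leiria minus Tamrabta, log2 of CPM + 0.5, with the standard error of the limma fit as bar) of the 3 enzymes and the 21 listed genes with a row, coloured by class. Points left of 0 are lower in Leiria: 17 of the 21 listed genes lie there, and the phenylcoumaran benzylic ether reductase unigene16601 lies farthest to the right at 3.15.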

How the data were processed

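The authors trimmed the reads, mapped concordant pairs with Bowtie2 onto contigs of SustainPineDB, counted them and deposited a signal per contig, the CPM of edgeR scaled by TMM factors. The sources used here give no version of Bowtie2 or edgeR. The script of the methods keeps contigs over 1 CPM, before TMM scaling, in at least 2 libraries. Of the rows here, 996 fell short of that when the recovered counts were divided by their own unscaled totals. Dividing each column by its step, found by least squares, gave whole counts for 70284 of 70284 values (tolerance 0.01 counts). None of the 3 enzymes was among the 10 identifiers on 2 rows.

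Provenances were compared by limma 3.58.1 under R 4.3.3. Values entered as log2(CPM + 0.5), with a trend for the prior variance and Benjamini-Hochberg adjusted p-values over 17571 rows. The pseudocount makes a fold change of a low gene too small. A call had an adjusted p below 0.05 and a logFC beyond 1 in either direction. Alternatives were edgeR 4.0.16 and DESeq2 1.42.0 on the recovered counts, pseudocounts of 0.1 and 1, other scalings, a minimum mean CPM of 5, no trend, no logFC threshold, a replicate block and each library left out.

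The enzymes and the lists were chosen with earlier results of these data known. Named genes were the 3 enzymes, the 3 genes nearest to each in pattern, and the listed genes, with values for every flavonoid, lignin, lignan and regulator gene and for the gene of largest absolute logFC in the other classes. A second glutathione transferase is named as a near neighbour.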

Additional observations from a re-analysis of the deposited data

How the results depend on the processing

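The logFC of each enzyme stayed negative under all 12 alternatives. Because the provenances did not overlap in any enzyme, leaving out a library or changing the pseudocount could not turn the sign. The replicate block cannot change a logFC in this balanced design. The constant sign is therefore a description. With each library left out in turn it ranged from -2.83 to -1.98 for chalcone synthase, from -2.002 to -1.30 for dihydroflavonol-4-reductase and from -2.77 to -1.71 for anthocyanidin reductase. Of the 3 enzymes, 3 were called by the edgeR exact test and by DESeq2, and 0 by limma under every setting and by the quasi-likelihood test.

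Over all rows, limma called 27 genes, 17 with a pseudocount of 1, 5 with a mean CPM of at least 5 and 9 with the replicate block. The quasi-likelihood test called 2, the exact test 1053 and DESeq2 1088. Leaving out each library in turn gave 0 to 32 calls, with 0 without L6, without L7 or without T3. The calls were 19 higher and 8 lower in Leiria, but 11 and 8 after quantile normalization. Of the listed genes, limma called 0, and 1 with equal library sums, the glutathione-S-transferase sp_v3.0_unigene32843, while the exact test and DESeq2 called 9 each. With equal sums the median over all rows was -0.13, beside 0.011 as deposited. The signs of the 21 listed genes were 17 negative and 4 positive under each scaling.

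The replicate numbers of the labels (1 for L6 and T3, 2 for L7 and T6) are not said to mark anything shared. Plants with the same replicate number deviated together over 11218 genes (r = 0.23, across genes, from 2 pairs only). The replicate block called 0 of the enzymes and 0 of the listed genes. The limma fit without the block also called 0 of each, so these counts could not fall. In dihydroflavonol-4-reductase and anthocyanidin reductase, counts of 99 to 301 in the Leiria libraries set the width of the intervals.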
